A study of Mus musculus with 24 samples.

Results

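RNA polymerase I was followed through the transcripts of 8 genes, Polr1a, Polr1b, Polr1c, Polr1d, Polr1e, Rrn3, Ubtf and Taf1d, in mouse primary cortical astrocytes given insulin or insulin-like growth factor 1 (IGF-1). The genes were taken by their symbols, and all 8 were found among the 32719 genes of the count tables and passed the filter on low counts, which 15599 genes passed. The astrocytes came from newborn pups homozygous for a floxed insulin receptor gene. Floxed control cells (IRflox) received an adenovirus encoding GFP alone, and insulin receptor knockout cells (IRKO) an adenovirus encoding a Cre:GFP fusion, so genotype and virus cannot be told apart. Both were used 5 days after the virus, on day 14 in vitro, after overnight starvation in medium without serum. The treatments lasted 6 h and were vehicle, insulin (100 nM) and IGF-1 (100 nM) in each genotype, which made 6 groups of 4 libraries, 24 in all.

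RNA polymerase I (Pol I) transcribes the ribosomal DNA repeats in the nucleolus into the precursor of the large ribosomal RNAs, and its activity is a main control point of ribosome production. The enzyme is brought to its promoter by UBF (Ubtf), which coats and bends ribosomal DNA, by the SL1 complex of TBP and its associated factors (Taf1d among them), and by the initiation factor TIF-IA (Rrn3), which binds the polymerase and is a known target of growth factor signalling. The libraries were made from poly-A RNA, so they report the messenger RNAs for this machinery. Ribosomal RNA was not analysed here.

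The libraries held 15429688 to 19010986 counts over genes, and 14.5 to 23.2% of their reads were not among those reported as uniquely overlapping genes. Insr, the targeted gene, averaged 61.6 ± 3.6 CPM (counts scaled to a common library size, as CPM; SD, n = 4) in IRflox and 40.4 ± 2.47 CPM in IRKO libraries under vehicle, and it was lower in all 12 IRKO libraries than in any IRflox library of the same treatment. Reads from exons that Cre does not remove are part of that count. All 10 astrocyte markers examined were detected, Slc1a3 highest at 1192 to 1597 CPM and S100b lowest at 1.70 to 3.93 CPM. Markers of microglia were present too, their 10 genes summing to 836 to 1223 CPM, and of 6 neuronal genes Stmn2 was at 56.7 to 98.5 CPM, Map2 at 43.1 to 72.3 CPM and Tubb3 at 3.31 to 14.5 CPM, while Rbfox3 and Snap25 did not exceed 0.405 CPM. In bulk RNA, fewer cells of a type and less RNA per cell cannot be told apart. Separate cultures are not named for replicate libraries, and p-values therefore measure only the spread between libraries, which may be technical.

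Promoters of 4 members are shown, those of the polymerase-specific subunit genes Polr1a, Polr1b and Polr1e and of the initiation factor gene Rrn3. Transcripts of these 4 rose with either ligand, but so did those of Polr1c, Polr1d and Taf1d, whose promoters are not shown. Each sequence is from RefSeq (GRCm38.p6), runs from 250 bases before to 50 bases after the start of the gene, and is written 5′ to 3′ on the strand of the gene. Polr1a lies at chr6:71908803-71909102 (plus strand), Polr1b at chr2:129100746-129101045 (plus), Polr1e at chr4:45018359-45018658 (plus) and Rrn3 at chr16:13780449-13780748 (plus). Capitals mark matches, on either strand, to the E-box CACGTG, the ETS motif CCGGAAG, the GC box GGGCGG and the CCAAT box.
Polr1a: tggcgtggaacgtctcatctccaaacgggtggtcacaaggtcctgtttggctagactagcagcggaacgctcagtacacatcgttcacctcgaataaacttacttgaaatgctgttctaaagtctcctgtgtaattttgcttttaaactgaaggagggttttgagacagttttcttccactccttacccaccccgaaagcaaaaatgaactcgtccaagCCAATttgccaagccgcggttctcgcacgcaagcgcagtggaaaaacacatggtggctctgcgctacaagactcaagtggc
Polr1b: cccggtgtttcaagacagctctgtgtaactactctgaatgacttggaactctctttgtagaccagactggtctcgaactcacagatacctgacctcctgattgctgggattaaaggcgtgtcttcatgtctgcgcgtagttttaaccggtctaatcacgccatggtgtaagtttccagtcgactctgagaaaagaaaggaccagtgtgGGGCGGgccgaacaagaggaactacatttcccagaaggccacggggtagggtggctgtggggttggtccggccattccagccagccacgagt
Polr1e: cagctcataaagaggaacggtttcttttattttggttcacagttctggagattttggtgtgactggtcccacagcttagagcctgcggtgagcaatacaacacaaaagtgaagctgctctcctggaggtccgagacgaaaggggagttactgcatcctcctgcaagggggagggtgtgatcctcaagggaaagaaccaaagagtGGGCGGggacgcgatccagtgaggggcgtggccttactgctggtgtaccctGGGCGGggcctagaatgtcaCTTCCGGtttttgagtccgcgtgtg
Rrn3: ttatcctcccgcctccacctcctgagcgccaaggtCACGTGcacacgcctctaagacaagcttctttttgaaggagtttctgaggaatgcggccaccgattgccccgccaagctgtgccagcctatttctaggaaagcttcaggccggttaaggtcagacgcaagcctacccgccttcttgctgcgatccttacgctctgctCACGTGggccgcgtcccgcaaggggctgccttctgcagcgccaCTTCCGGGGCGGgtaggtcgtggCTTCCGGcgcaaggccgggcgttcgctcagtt

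Rrn3 was the only member with the E-box that MYC and related factors can bind, and its promoter held 2 copies, which start 215 and 48 bases before the gene start. Of the Pol I subunit genes outside the members, Cd3eap also held 2 copies of this E-box, and Twistnb and Znrd1 held none. Of 32851 promoters of the same length, 7.15% held at least 1 such E-box. The ETS motif was found in Polr1c, Polr1e and Rrn3 and in 8.86% of all promoters. In Rrn3, a copy of the ETS motif and the GC box overlap. The GC box was present in 6 of the 8 members and in 35.66% of all promoters, and the CCAAT box in Polr1a and Ubtf and in 37.41%. Polr1d held none of these 4 motifs. Of 4 further motifs searched on both strands, TGACGT was found in Polr1c (7.51% of all promoters), GCATGCG in Ubtf (3.58%), and TATAAA and GTAAACA in no member (13.62% and 3.65%). The 8 members had 13 promoters in the table, of which Ubtf had 6, so Ubtf had more chances of a match. A match is only a stretch of letters and does not show that a factor binds there.

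Insulin and IGF-1 raised the transcripts of nearly the whole Pol I set in both genotypes. In IRflox cells, 7 of the 8 members rose with insulin and 7 of 8 with IGF-1, and in IRKO cells 8 of 8 rose with insulin and 7 of 8 with IGF-1 (edgeR's quasi-likelihood test, Benjamini-Hochberg adjusted p under 0.05 over all genes). Among all 15599 genes, 24.3%, 26.4%, 24.7% and 26.9% rose in the same 4 comparisons. The median log2 difference of the members was 0.60 with either ligand in IRflox cells, 0.51 with insulin in IRKO cells and 0.55 with IGF-1 in IRKO cells, and the median over all genes lay between -0.0037 and 0.0086. The insulin and IGF-1 comparisons of a genotype use the same 4 vehicle libraries. Members whose 4 treated libraries all exceeded the 4 vehicle libraries numbered 7, 7, 6 and 7, beside 20.1%, 22.6%, 20.5% and 23.6% of all genes.

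**Figure D1:**
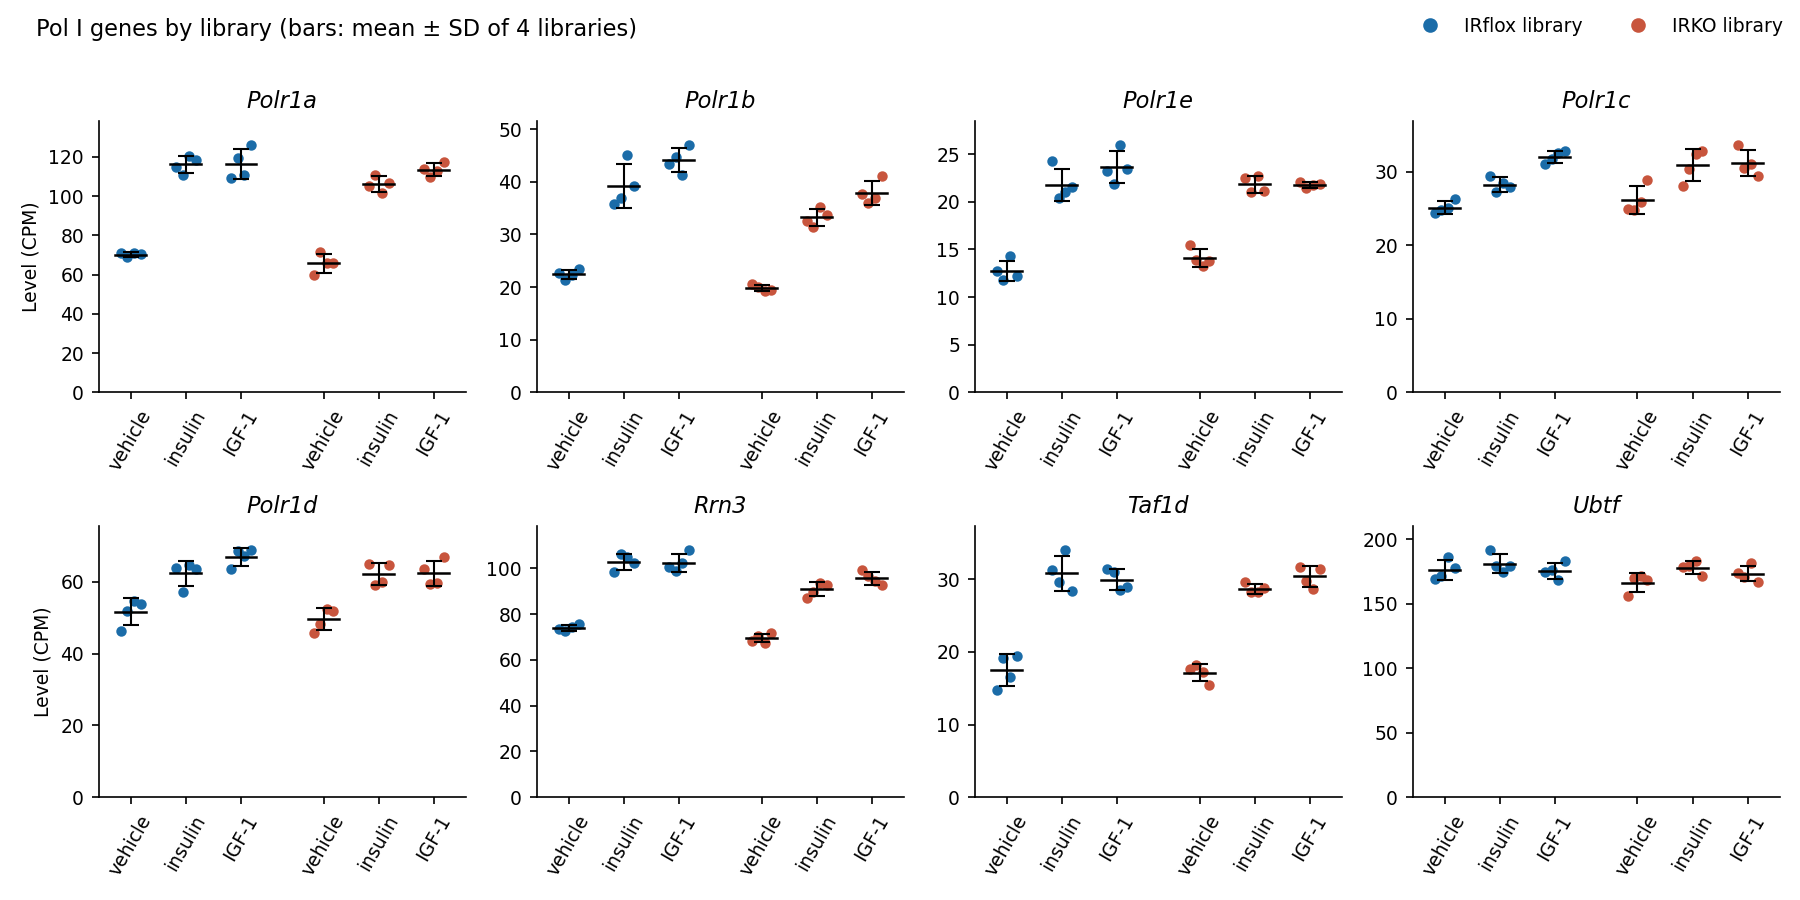
Levels of the 8 genes in CPM (vertical axes, from 0) in each of the 24 libraries, by genotype (colour) and treatment (horizontal axis). Points are libraries, and lines with bars are the mean ± SD of 4. Polr1a, Polr1b, Polr1d, Polr1e, Rrn3 and Taf1d separate the treated from the vehicle libraries in both genotypes, while the Ubtf libraries overlap between most groups.

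Among the polymerase's own subunits, Polr1a, Polr1b and Polr1e had the larger differences. Polr1a encodes the largest subunit, which forms the active site together with Polr1b (chromosome 6, 71909053 to 71984935, plus strand; GRCm38, GENCODE M21). In IRflox cells its libraries were at 70.9, 68.8, 71.0 and 70.3 CPM under vehicle, at 115, 111, 121 and 119 CPM under insulin, and at 109, 119, 111 and 126 CPM under IGF-1. In IRKO cells they were at 59.9, 71.8, 65.8 and 66.2 CPM under vehicle, 105, 111, 102 and 107 CPM under insulin, and 114, 110, 113 and 118 CPM under IGF-1. Every treated library was above every vehicle library of either genotype. The log2 difference from vehicle was 0.73 (SE 0.047) with insulin and 0.73 (SE 0.047) with IGF-1 in IRflox cells, and 0.69 (SE 0.048) and 0.78 (SE 0.047) in IRKO cells (edgeR adjusted p = 2.14e-16, 1.1e-16, 1.24e-15 and 1.2e-17). Polr1a thus rose by a like factor under each ligand, 1.65-fold with insulin in IRflox cells.

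Polr1b encodes the second largest subunit, the partner of Polr1a in the catalytic core (chromosome 2, 129100995 to 129126594, plus strand). Its IRflox libraries were at 22.6, 21.3, 22.3 and 23.5 CPM under vehicle, at 35.8, 36.9, 45.0 and 39.2 CPM under insulin, and at 43.4, 44.8, 41.4 and 47.0 CPM under IGF-1. Its IRKO libraries were at 20.5, 19.96, 19.3 and 19.5 CPM under vehicle, 32.6, 31.4, 35.2 and 33.8 CPM under insulin, and 37.7, 36.0, 36.9 and 41.1 CPM under IGF-1. Vehicle and treated libraries did not overlap, and in IRKO cells the 3 treatments did not overlap at all. The log2 difference was 0.81 (SE 0.066) with insulin and 0.98 (SE 0.065) with IGF-1 in IRflox cells, and 0.75 (SE 0.067) and 0.93 (SE 0.066) in IRKO cells (edgeR adjusted p = 1.44e-13, 2.28e-16, 2.27e-12 and 1.61e-15).

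Polr1e encodes a polymerase-specific subunit that works in a pair with the product of Cd3eap on the side of the enzyme (chromosome 4, 45018583 to 45036565, plus strand). Its IRflox libraries were at 12.7, 11.8, 14.3 and 12.2 CPM under vehicle, 24.2, 20.4, 20.97 and 21.6 CPM under insulin, and 23.2, 21.9, 25.9 and 23.4 CPM under IGF-1. Its IRKO libraries were at 15.5, 13.9, 13.2 and 13.8 CPM under vehicle, 22.4, 21.02, 22.7 and 21.2 CPM under insulin, and 22.1, 21.4, 21.7 and 21.9 CPM under IGF-1. All treated libraries were above all vehicle libraries. The log2 difference was 0.77 (SE 0.077) and 0.88 (SE 0.076) in IRflox cells and 0.63 (SE 0.075) and 0.63 (SE 0.075) in IRKO cells, insulin before IGF-1 (edgeR adjusted p = 3.88e-11, 4.33e-13, 2.84e-09 and 2.73e-09).

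Polr1c and Polr1d, which encode the pair of assembly subunits that Pol I shares with Pol III, rose by less. Polr1c (chromosome 17, 46243920 to 46248054, minus strand) was at 24.4, 24.8, 25.1 and 26.3 CPM in IRflox vehicle libraries, at 29.5, 27.2, 28.5 and 27.9 CPM under insulin, and at 31.0, 31.7, 32.6 and 32.8 CPM under IGF-1. In IRKO cells it was at 24.9, 24.8, 25.9 and 29.0 CPM under vehicle, 28.03, 30.4, 32.4 and 32.8 CPM under insulin, and 33.6, 30.5, 31.1 and 29.5 CPM under IGF-1. Treated and vehicle libraries did not overlap except for insulin in IRKO cells. The log2 difference with IGF-1 was 0.35 (SE 0.063) in IRflox and 0.26 (SE 0.062) in IRKO cells, and with insulin 0.24 (SE 0.062) in IRKO cells (edgeR adjusted p = 9.84e-06, 0.000662 and 0.00134). With insulin in IRflox cells it was 0.17 (SE 0.064, edgeR adjusted p = 0.0276). That call was lost without vehicle replicate 1, 2 or 3 or insulin replicate 1, 3 or 4 of IRflox, with edgeR adjusted p between 0.0556 and 0.138, and with no low-count filter (0.0669) or a minimum mean of 1 CPM (0.0537).

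Polr1d (chromosome 5, 147077050 to 147111597, plus strand) was at 46.3, 51.8, 54.6 and 53.8 CPM in IRflox vehicle libraries, at 63.8, 57.2, 64.8 and 63.4 CPM under insulin, and at 63.4, 68.6, 67.1 and 68.8 CPM under IGF-1. In IRKO cells it was at 45.8, 48.3, 52.4 and 51.9 CPM under vehicle, 64.9, 59.2, 60.1 and 64.6 CPM under insulin, and 63.6, 59.5, 59.8 and 66.8 CPM under IGF-1. No treated library reached down to a vehicle library. The log2 difference lay between 0.27 (SE 0.055, insulin in IRflox) and 0.38 (SE 0.055, IGF-1 in IRflox), with edgeR adjusted p of 7.94e-05 or less. A processed copy of Polr1d, Gm12751, matches 381 of its bases exactly and is not among the counted genes. Some of its reads could be counted under Polr1d, or reads of Polr1d from that stretch could be left uncounted, and neither was tested.

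Rrn3, the initiation factor that links the polymerase to the promoter complex, rose in all 4 comparisons (chromosome 16, 13780708 to 13814839, plus strand). Its IRflox libraries were at 73.3, 72.6, 74.2 and 75.5 CPM under vehicle, 98.2, 106, 105 and 102 CPM under insulin, and 100.4, 98.7, 102 and 108 CPM under IGF-1. Its IRKO libraries were at 68.3, 70.5, 67.6 and 71.6 CPM under vehicle, 87.0, 89.8, 93.6 and 92.9 CPM under insulin, and 99.3, 96.5, 94.4 and 92.7 CPM under IGF-1. The vehicle libraries stayed below all treated ones. The log2 difference was 0.48 (SE 0.041) and 0.47 (SE 0.040) in IRflox cells and 0.39 (SE 0.041) and 0.46 (SE 0.041) in IRKO cells, insulin before IGF-1 (edgeR adjusted p = 5.07e-13, 5.14e-13, 1.64e-10 and 9.54e-13).

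Ubtf, the gene of the ribosomal DNA binding protein UBF, was the exception (chromosome 11, 102304560 to 102319742, minus strand). Its IRflox libraries were at 169, 171, 186 and 178 CPM under vehicle, 192, 179, 175 and 179 CPM under insulin, and 175, 176, 168 and 183 CPM under IGF-1. Its IRKO libraries were at 156, 170, 172 and 169 CPM under vehicle, 179, 179, 183 and 171 CPM under insulin, and 174, 171, 181 and 167 CPM under IGF-1. Treated and vehicle libraries overlapped in each of the 4 comparisons. The log2 difference was 0.04 with insulin and -0.0046 with IGF-1 in IRflox cells and 0.06 with IGF-1 in IRKO cells (edgeR adjusted p = 0.437, 0.938 and 0.222), with 95% intervals that reached from -0.09 to 0.14 in all. With insulin in IRKO cells it was 0.10 (SE 0.040, edgeR adjusted p = 0.0436). That call did not hold with DESeq2 (0.0667), other scalings (0.0717 and 0.0746), other filters (0.0672 and 0.148), a fit to the groups compared (0.0804), or without vehicle replicate 1, 2 or 4 or insulin replicate 1, 2 or 3 of IRKO (0.0576 to 0.312).

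Taf1d encodes a TBP-associated factor of the SL1 complex (chromosome 9, 15306214 to 15316991, plus strand). Its IRflox libraries were at 14.8, 19.2, 16.6 and 19.4 CPM under vehicle, 31.2, 29.6, 34.0 and 28.4 CPM under insulin, and 31.4, 30.9, 28.5 and 28.8 CPM under IGF-1. Its IRKO libraries were at 17.6, 18.2, 17.2 and 15.4 CPM under vehicle, 29.6, 28.2, 28.2 and 28.7 CPM under insulin, and 31.6, 29.7, 28.6 and 31.4 CPM under IGF-1. Treated and vehicle libraries did not overlap, and the libraries of the ligands overlapped each other in both genotypes. The log2 difference was 0.82 (SE 0.074) and 0.78 (SE 0.074) in IRflox and 0.74 (SE 0.074) and 0.83 (SE 0.074) in IRKO cells, insulin before IGF-1 (edgeR adjusted p = 3.3e-12, 8.73e-12, 3.52e-11 and 1.42e-12).

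The Taf1d values carry a limit of their own, because 8 snoRNA genes lie inside the gene and reads over them could be counted for both. Measured genes shared 13.6% of the exon bases of Taf1d, while none shared exon bases with the other 7 members. Beside the snoRNA genes, these were the miRNA genes Gm49349 and mmu-mir-7650 and the protein-coding genes 4931406C07Rik and Cep295 on the minus strand. The protein-coding genes shared 235 and 77 exon bases and held 20965 and 10851 counts over the 24 libraries. Reads were not stranded, so reads of these genes could also be counted for Taf1d, and their counts were not subtracted. The snoRNA counts summed to 42.6% to 67.4% of the Taf1d count of a library. In IRflox libraries they came to 172, 201, 133 and 188 counts under vehicle, 248, 229, 267 and 268 under insulin, and 315, 291, 332 and 308 under IGF-1, so they were higher in treated libraries as well. With these counts subtracted, an alternative chosen after seeing the data, the Taf1d log2 difference was 1.08 and 0.66 in IRflox and 0.68 and 0.68 in IRKO cells, insulin before IGF-1 (edgeR adjusted p = 8.77e-08, 0.00036, 0.000313 and 0.000257). A processed copy, Gm13487, also matches 880 bases of Taf1d at 95.6% identity and is not among the counted genes.

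**Figure D2:**
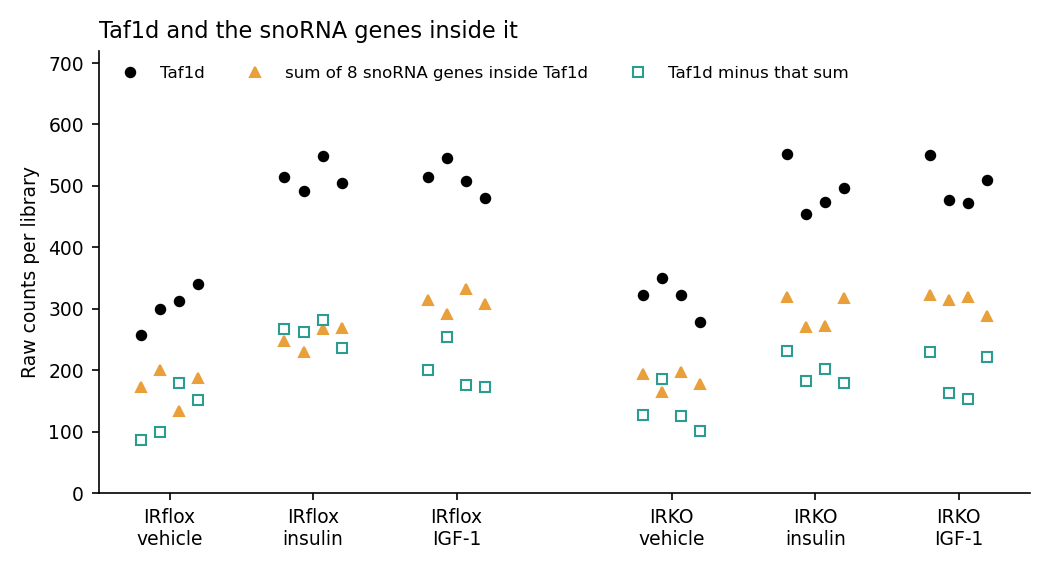
Raw counts per library (vertical axis, from 0) of Taf1d, of the 8 snoRNA genes inside it summed, and of Taf1d minus that sum, in the 6 groups (horizontal axis, 4 libraries each). Taf1d and the snoRNA sum are both higher in treated than in vehicle libraries of the same genotype.

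The unequal changes shifted the proportions among the members. The ratio of Polr1a to Polr1c in CPM went from 2.80 ± 0.0991 in IRflox vehicle libraries to 4.11 ± 0.168 with insulin and 3.63 ± 0.204 with IGF-1, and from 2.53 ± 0.264 to 3.44 ± 0.300 and 3.65 ± 0.250 in IRKO libraries (SD, n = 4). The ratio of Rrn3 to Ubtf was 0.420 ± 0.0149, 0.569 ± 0.0396 and 0.583 ± 0.0213 in IRflox cells and 0.418 ± 0.0190, 0.511 ± 0.0232 and 0.552 ± 0.0221 in IRKO cells. These ratios do not depend on how libraries are scaled. The Polr1a to Polr1c, Polr1a to Polr1d, Polr1a to Ubtf, Rrn3 to Ubtf and Taf1d to Taf1b ratios were higher in all 4 treated libraries than in all 4 vehicle libraries in each of the 4 comparisons. Each of these had an exact two-sided permutation p of 0.029, the smallest that 4 against 4 libraries allow. After adjustment over the 24 tests of 6 ratios it was 0.0327. These ratios set a gene with a larger change over one with a smaller change in the edgeR tests given here, so they are not separate support. The Taf1d to Taf1b ratio used Taf1d counts without subtraction of the snoRNA counts. The Polr1b to Polr1a ratio rose only with IGF-1 in IRflox cells, from 0.319 ± 0.0104 to 0.379 ± 0.0116 (n = 4, exact permutation p = 0.029, adjusted 0.0327). In the other 3 comparisons it overlapped between groups (exact permutation p = 0.314 and 0.543 with insulin in IRflox and IRKO, 0.114 with IGF-1 in IRKO cells), and its difference between ligands or genotypes was not tested.

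**Figure D3:**
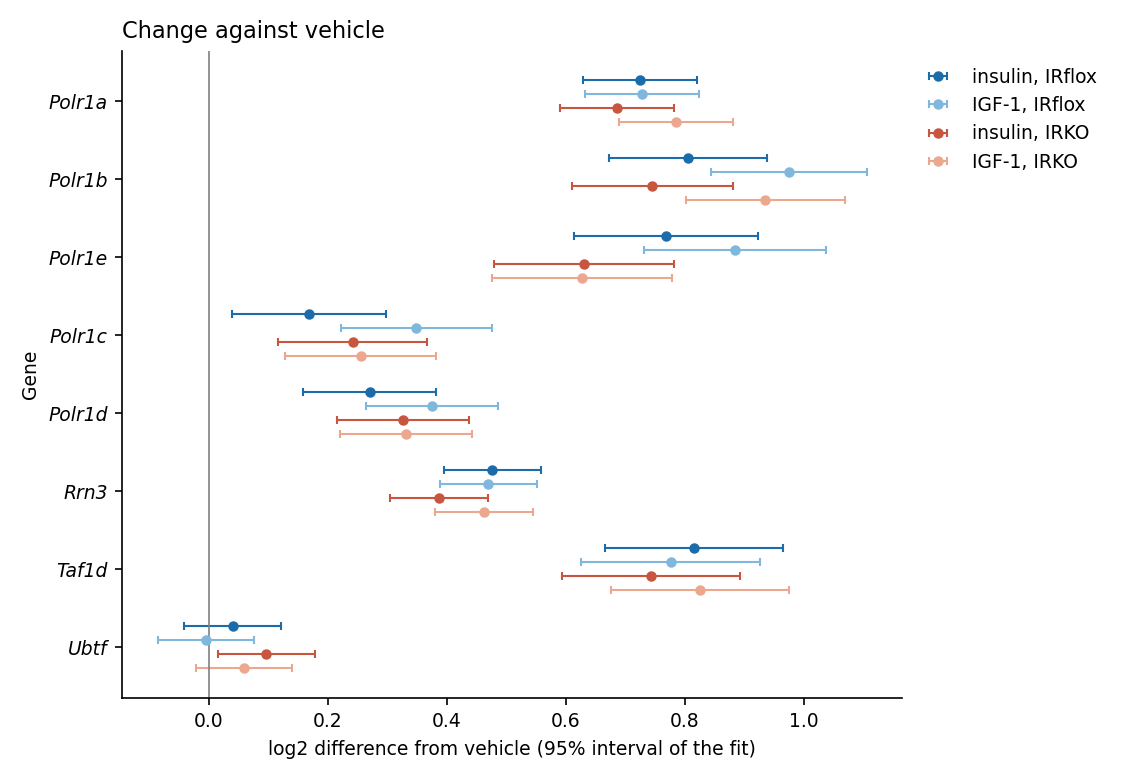
Log2 difference from vehicle (horizontal axis) of each gene (vertical axis) under insulin and IGF-1 in the 2 genotypes, with the 95% interval of the fit over 24 libraries. Polr1a, Polr1b, Polr1e and Taf1d lie between 0.63 and 0.98, Rrn3 between 0.39 and 0.48, Polr1c and Polr1d between 0.17 and 0.38, and Ubtf near 0.

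Levels can be compared between genes only per length. Per kilobase of the union of their exons, the IRflox vehicle levels were 26.9 ± 1.16 CPM for Ubtf, 17.1 ± 0.286 for Rrn3, 17.0 ± 1.22 for Polr1d, 11.04 ± 0.362 for Polr1c, 5.92 ± 0.0875 for Polr1a, 3.86 ± 0.154 for Polr1b, 3.27 ± 0.276 for Polr1e and 1.95 ± 0.247 for Taf1d (SD, n = 4). Neighbours in this order did not overlap between libraries except Rrn3 and Polr1d. Ubtf was the highest in every group by this measure. In IRKO cells the order differed under vehicle only in pairs whose libraries overlapped, Polr1d with Rrn3 and Polr1e with Polr1b. Per kilobase of the longest transcript, Polr1d came first at 38.2 CPM and Ubtf second at 37.5 CPM, so the top of the order depends on which isoforms are made.

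Few members were called between IGF-1 and insulin, as among all genes. The median log2 difference of the members, IGF-1 minus insulin, was 0.05 in IRflox and 0.04 in IRKO cells. At the same dose and time, edgeR called 0 of the 8 members between the ligands in IRflox and 0 of 8 in IRKO cells (2 of 8 at an unadjusted p under 0.05 in each, and 0 with DESeq2), beside 2.59% and 2.67% of all genes (13.7% and 13.8% unadjusted). Averaged over the genotypes, Polr1b was higher with IGF-1 by 0.18 (SE 0.044, edgeR adjusted p = 0.00632) and was the only member called, beside 8.55% of all genes (4.29% higher). Within a genotype the Polr1b difference was 0.17 in IRflox (SE 0.061, edgeR adjusted p = 0.154) and 0.19 in IRKO cells (SE 0.063, edgeR adjusted p = 0.105). In IRKO cells all 4 IGF-1 libraries were above all 4 insulin libraries, as were 4.64% of all genes. In IRflox cells insulin replicate 3, at 45.0 CPM, lay within the IGF-1 range, and without it the difference was 0.24 (edgeR adjusted p = 0.0265). Polr1c separated the ligands in IRflox libraries, as did 3.56% of all genes, with a difference of 0.18 (SE 0.062, edgeR adjusted p = 0.127). For Polr1a and Rrn3, the averaged difference between ligands was 0.05 (95% interval -0.01 to 0.12) and 0.03 (-0.02 to 0.09). Each ligand was used at a single dose.

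Whether loss of the insulin receptor gene changes the set was asked by IRKO against IRflox within each treatment. Polr1b and Rrn3 were lower in IRKO cells, by less than the ligands raised them. Under vehicle, edgeR called 0 of 8 members (3 of 8 at an unadjusted p under 0.05, and 0 with DESeq2), beside 7.86% of all genes (20.7% unadjusted). Polr1b differed by -0.18 (SE 0.070, edgeR adjusted p = 0.113) and Rrn3 by -0.09 (SE 0.041, edgeR adjusted p = 0.203), yet both had all 4 IRKO libraries below all 4 IRflox libraries, as did 5.78% of all genes. Under insulin 2 of 8 members were lower, beside 5.53% of all genes (10.5% in either direction), Polr1b by -0.24 (SE 0.063, edgeR adjusted p = 0.00906) and Rrn3 by -0.18 (SE 0.040, edgeR adjusted p = 0.00192). The same 2 genes were those without overlap between the genotypes, as were 7.8% of all genes. Without IRflox insulin replicate 3, the Polr1b difference was -0.17 (edgeR adjusted p = 0.099). Under IGF-1 only Polr1b was lower, by -0.22 (SE 0.062, edgeR adjusted p = 0.0213), beside 3.15% of all genes (6.76% in either direction), and its libraries did not overlap, as for 6.58% of all genes. That call was lost without IRflox IGF-1 replicate 2 or 4 or IRKO IGF-1 replicate 1, 2 or 3 (edgeR adjusted p between 0.0519 and 0.104).

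Averaged over the 3 treatments, 3 of 8 members were lower in IRKO cells, beside 13.0% of all genes (25.9% in either direction). Polr1b differed by -0.21 (SE 0.037, edgeR adjusted p = 2.65e-05), Rrn3 by -0.12 (SE 0.023, edgeR adjusted p = 9.1e-05) and Polr1a by -0.09 (SE 0.027, edgeR adjusted p = 0.0143). Polr1a did not pass within a treatment, with differences of -0.09, -0.13 and -0.04 for vehicle, insulin and IGF-1 (edgeR adjusted p = 0.28, 0.0588 and 0.732). DESeq2 called it under insulin (adjusted p = 0.0462). The remaining 5 members lay between -0.05 (Polr1d) and 0.05 (Polr1c). With its snoRNA counts subtracted, Taf1d was lower under insulin by -0.44 (edgeR adjusted p = 0.0369), against -0.10 (0.414) without subtraction.

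Microglia markers moved with genotype and treatment in the other direction. Their summed level was 969 to 1023 CPM in IRflox and 1187 to 1223 CPM in IRKO vehicle libraries, 836 to 903 and 1024 to 1044 CPM under insulin, and 877 to 908 and 995 to 1071 CPM under IGF-1. Averaged over treatments, 8 of the 10 markers were higher in IRKO cells and 0 were lower (edgeR), beside 12.8% and 13.0% of all genes. P2ry12 stayed at 0.619 to 1.70 CPM in all libraries. The 10 astrocyte markers summed to 4503 to 4785 CPM in IRflox vehicle libraries and to 4131 to 4268 CPM with IGF-1, and to 4728 to 4983 and 4453 to 4493 CPM in IRKO libraries. With insulin they overlapped vehicle, at 4470 to 4748 CPM in IRflox and 4681 to 4829 CPM in IRKO libraries.

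The other marker lists held genes that moved in opposite directions. The oligodendrocyte lineage markers summed to 220 to 255 CPM under vehicle and 299 to 411 CPM with a ligand, mostly Olig1 and Olig2. Mbp, a myelin gene, was lower with a ligand in all 4 comparisons, by -0.33 to -0.56 (edgeR adjusted p of 0.0285 or less), while Sox10 and Mog did not exceed 0.574 CPM. The 6 neuronal markers summed to 114 to 137 CPM under vehicle and 135 to 169 CPM with a ligand, and the sums were lower in IRKO than in IRflox libraries in each treatment. Of the 4 neuronal markers tested, Stmn2 and Tubb3 rose with a ligand in all 4 comparisons, Map2 fell with IGF-1 in both genotypes and Syt1 fell with either ligand in IRKO cells (edgeR). The 8 fibroblast and mural markers summed to 288 to 368 CPM, and averaged over treatments 3 were lower and 1 was higher in IRKO cells, with Lum lowest at -1.77 (edgeR adjusted p = 1.41e-12). The part of these cells in the member differences was not tested.

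**Figure D4:**
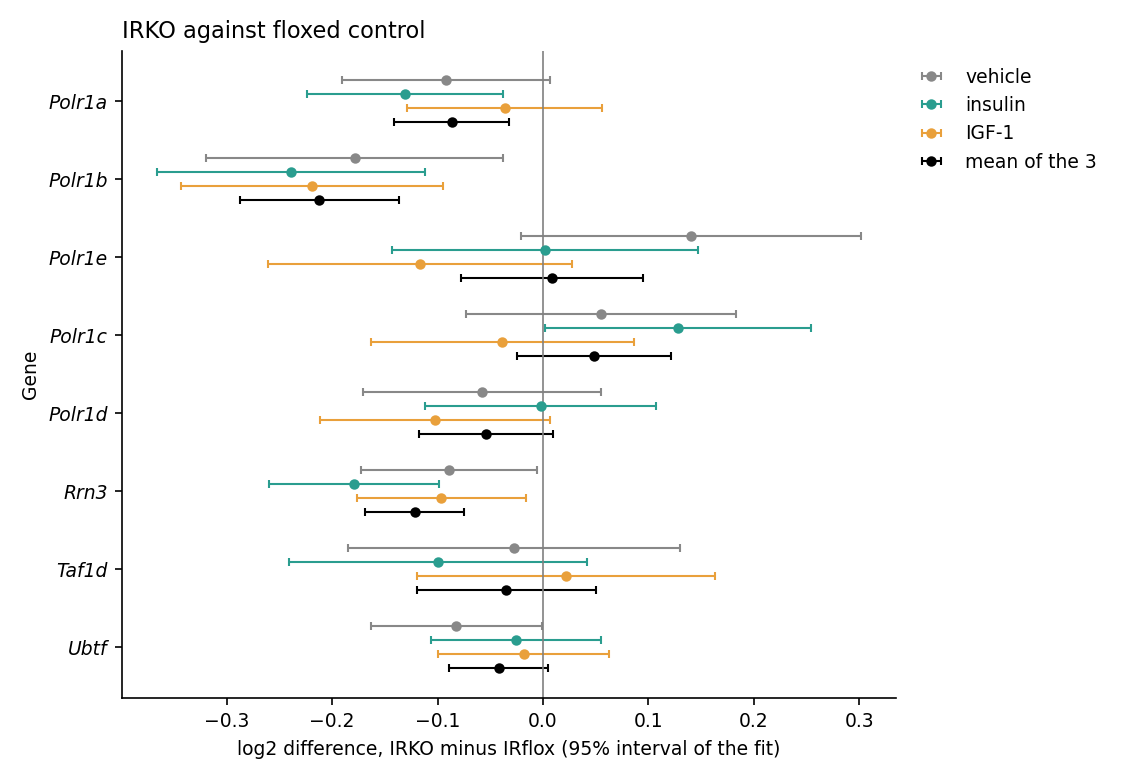
Log2 difference of IRKO minus IRflox (horizontal axis) for each gene (vertical axis) under vehicle, insulin and IGF-1 and averaged over the 3, with the 95% interval of the fit. The Polr1b and Rrn3 intervals lie below 0 in all 4, and the averaged values of Polr1b, Rrn3 and Polr1a are -0.21, -0.12 and -0.09.

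The responses themselves were compared between genotypes by the interaction of genotype and ligand. No member was called as different. For insulin edgeR called 0 of 8 (0 at an unadjusted p under 0.05). For IGF-1 it called 0 of 8 (1 at an unadjusted p under 0.05), and DESeq2 called 0 in both. Over all genes edgeR also called 0.0% in both, so 0 of 8 does not set the members apart. At an unadjusted p under 0.05 there were 838 and 822 genes (5.37% and 5.27%), and DESeq2 called 0 and 2 genes. Polr1e had the largest difference in response, -0.14 (95% interval -0.35 to 0.08) for insulin and -0.26 (-0.47 to -0.04) for IGF-1 (edgeR adjusted p = 0.934 and 0.882). For Polr1a the intervals were -0.17 to 0.10 and -0.08 to 0.19, and for Polr1b -0.25 to 0.13 and -0.23 to 0.15, so differences of that size could not be seen with 4 libraries a group.

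Other subunits of the enzyme also rose in part. The 3 subunits outside the set are Cd3eap, the partner of Polr1e, Twistnb, a stalk subunit, and Znrd1, a small subunit that aids RNA cleavage. Cd3eap rose in all 4 comparisons, from 19.8 ± 1.32 to 23.4 ± 1.68 CPM with insulin in IRflox cells (log2 differences of 0.24, 0.35, 0.30 and 0.35 for IRflox insulin, IRflox IGF-1, IRKO insulin and IRKO IGF-1, edgeR adjusted p of 0.0146 or less). Twistnb rose by 0.21 and 0.29 in IRflox cells and had 0.11 and 0.14 in IRKO cells (edgeR adjusted p = 0.0192, 0.000873, 0.198 and 0.0893). Znrd1 rose with insulin in IRKO cells, by 0.34 (edgeR adjusted p = 0.00809). Of the 5 subunits shared by all 3 nuclear polymerases, 3, 3, 3 and 4 rose and 0 fell. Polr2h had 0.50, 0.61, 0.43 and 0.54, and Polr2l had 0.30, 0.54, 0.37 and 0.69.

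The SL1 partners of Taf1d had log2 differences between -0.09 and 0.35. With insulin in IRflox cells, Taf1a, Taf1b, Taf1c and Tbp had log2 differences of 0.18, 0.12, 0.12 and 0.06 (edgeR adjusted p = 0.156, 0.249, 0.289 and 0.362). With IGF-1, Taf1a, Taf1c and Tbp rose in IRflox cells by 0.30, 0.24 and 0.14, and Taf1c and Tbp in IRKO cells by 0.34 and 0.17. With insulin in IRKO cells, Taf1c rose by 0.35, from 12.8 ± 1.73 to 16.3 ± 1.35 CPM (SD, n = 4; edgeR adjusted p = 0.00132), and was the only one of the 4 called. Taf1b did not pass in any of the 4 comparisons.

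Factors that act on ribosomal DNA transcription moved both ways. Of 16 such genes, 9, 9, 10 and 9 rose and 5, 5, 6 and 5 fell in IRflox insulin, IRflox IGF-1, IRKO insulin and IRKO IGF-1. Over all genes, 24.3%, 26.4%, 24.7% and 26.9% rose and 21.4%, 24.4%, 21.7% and 25.1% fell in these comparisons. Ddx21, a nucleolar helicase, rose by 0.79, 0.86, 0.71 and 0.83, and Nolc1, a nucleolar chaperone, by 0.65, 0.71, 0.66 and 0.74. Mybbp1a, a nucleolar MYB-binding protein gene, rose by 0.60, 0.67, 0.54 and 0.65. Myc, whose product can activate Pol I transcription and its factors, was named after its values were seen, and it fell from 42.8 ± 2.44 to 33.1 ± 2.92 CPM with insulin in IRflox cells (log2 difference -0.37, SE 0.065, edgeR adjusted p = 7.35e-06).

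Pol III and Pol II genes had lower medians than the Pol I members. So did the 3 Pol I subunits outside the set, with medians of 0.21, 0.29, 0.30 and 0.19 in the same 4 comparisons. The 4 SL1 genes outside the set had medians of 0.12, 0.21, 0.14 and 0.14. The 22 Pol III genes had medians of 0.12, 0.11, 0.09 and 0.09, with 10, 10, 9 and 9 higher and 4, 4, 5 and 6 lower, beside the 24.3% to 26.9% higher and 21.4% to 25.1% lower of all genes. Maf1, the Pol III repressor, fell by 0.74 with insulin and by 0.88 with IGF-1 in IRflox cells. The 21 Pol II genes had medians of 0.21, 0.24, 0.17 and 0.24, with 12, 14, 11 and 16 higher and 3, 3, 2 and 3 lower. Polr2a, the counterpart of Polr1a in Pol II, fell by 0.30 with insulin and by 0.36 with IGF-1 in IRflox cells (edgeR adjusted p = 1.12e-07 and 1.17e-09), opposite in direction to Polr1a. No test compared the lists with each other, and the members and lists were chosen with earlier results of these data known.

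**Figure D5:**
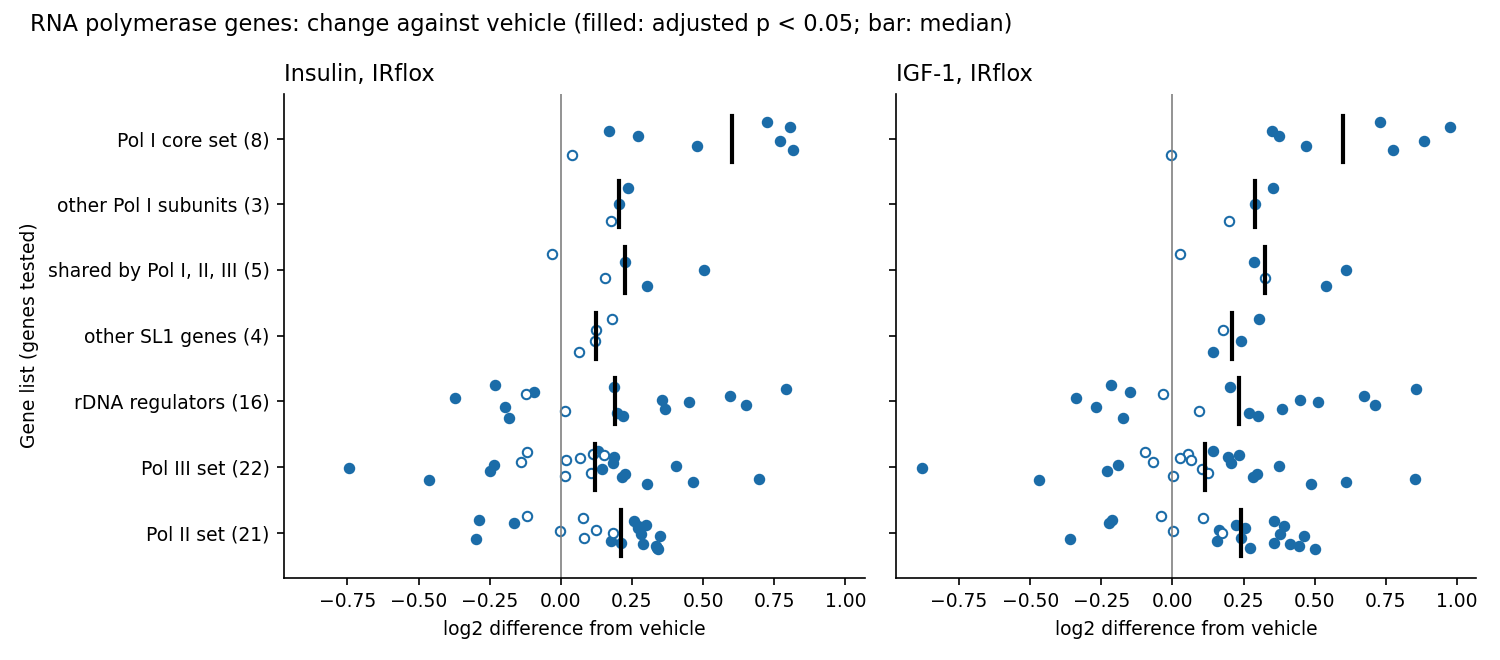
Log2 difference from vehicle (horizontal axes) in IRflox cells under insulin (left) and IGF-1 (right) for single genes (points) of 7 lists (vertical axis), filled at an edgeR adjusted p under 0.05, with the median as a bar. The Pol I members have a median of 0.60 in both, the Pol III genes 0.12 and 0.11, and the Pol II genes 0.21 and 0.24.

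Across the 24 libraries, the 21 pairs of members without Ubtf had Pearson correlations of log2 CPM between 0.76 and 0.97 (median 0.91), and the 7 pairs with Ubtf between 0.26 and 0.44. With the 6 group means taken out, the 21 pairs had a median of 0.03, so the likeness lay between groups rather than among replicates. The libraries share the treatment contrast and their depth, and these values are descriptions. Of 10767 genes of sufficient level outside the set, those most like the mean of the members were Ftsj3 (r = 0.98), Fbl (0.98), Mybbp1a (0.98), Eef1g (0.98) and Psme3 (0.98), and 301 genes (2.8%) had r above 0.95.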

How the data were processed

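Poly-A RNA of 24 libraries (6 groups of 4) was sequenced as non-stranded pairs of reads, per the labels' protocols. The authors deposited raw counts of reads per gene, not normalized. The submitters' processing notes name STAR 2.7.7a, R 4.0.4, edgeR, DESeq2 and mm10 without their roles, while the counting program and annotation release were not given in the sources used here. Groups came from sample titles. Footer lines naming no gene were left out. Summed gene counts exceeded the number of gene-overlapping reads by 4.55 to 4.93%, as happens when a read counts for several genes.

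Counts were fitted with edgeR 4.0.16 (R 4.3.3): default expression filter (minimum count 10, minimum total 15), TMM (factors 0.982 to 1.0177), 1 mean per group over all 24 libraries, quasi-likelihood tests of 13 comparisons, Benjamini-Hochberg adjustment over 15599 genes and a threshold of 0.05. The biological coefficient of variation was 4.92%. CPM were computed with TMM sizes, and log2 CPM with a prior count of 2. The fit was tested on simulated counts. Ratios used exact permutation tests. Gene coordinates are from GENCODE M21, which held 32663 of 32719 identifiers. Replicates differed by more than counting noise in all 36 pairs (chi-square per gene 2.17 to 6.86).

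Values or ranges of all 8 members are given for each ligand against vehicle. In the other comparisons all 8 were tested and counted, and values are given for some of them. From each further list, the up to 3 genes with the lowest p under insulin in IRflox are named, with all Pol I and SL1 genes. Genes most like the members were ranked at a mean log2 CPM of at least 3. The members and lists were chosen with earlier results of these data known. Alternatives were other scalings, filters, DESeq2 1.42.0, a fit to the groups compared, a replicate block and leaving out each library.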

Additional observations from a re-analysis of the deposited data

How the results depend on the processing

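The results checked were those of all members against vehicle and in the averaged comparisons, and of named members elsewhere. Their direction and call held in most settings: with DESeq2 in 61 of 63 results, with RLE factors in 62 of 63 and with library size alone in 62 of 63. Leaving out 1 library gave 6 to 7 members called with insulin in IRflox and 7 to 8 in IRKO cells, 0 to 1 members called for IGF-1 against insulin in IRflox, 1 to 3 for IRKO against IRflox under insulin and 0 to 1 under IGF-1. Leaving out IRflox insulin replicate 3 gave the 1 for IGF-1 against insulin and the 1 for IRKO under insulin. Among the results checked, signs turned only where the difference was not called. Without a single library, Ubtf in IRflox lay between -0.007655 and 0.06399 with insulin (0.04 with all) and between -0.03622 and 0.02242 with IGF-1 (-0.0046 with all). Polr1a in IRKO against IRflox under IGF-1 lay between -0.06364 and 0.00393, and averaged Polr1e between -0.009527 and 0.02627. With snoRNA counts subtracted, Taf1d in IGF-1 against insulin was -0.2075 (edgeR adjusted p = 0.239). The causes were not tested beyond the change of setting itself.

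The replicate numbers did not pair the libraries: same-numbered libraries of different groups deviated together with r between -0.115 and 0.0611, and 8 of 24 libraries correlated best with their own number. With the replicate number as a block, 7, 7, 8 and 7 members were called against vehicle, and no call among the member results checked changed.

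Over all genes, the split of higher and lower calls in IRKO against IRflox under insulin was 771 to 863, and 942 to 698 with library size alone. For IGF-1 against insulin, 404 genes were called in IRflox, and 247 without insulin replicate 2 or 250 without IGF-1 replicate 4. In IRKO 417 were called, and 267 or 277 without insulin replicate 1 or 3. With no low-count filter, 19 genes were called for each genotype difference in response, against 0. Per kilobase of the longest transcript, the IRflox vehicle levels in CPM were 37.55 (Ubtf), 20.63 (Rrn3), 38.24 (Polr1d), 19.14 (Polr1c), 7.624 (Polr1a), 5.608 (Polr1b), 4.272 (Polr1e) and 3.584 (Taf1d), all above those per exon union because the length is shorter. Without 1 library the ratios kept their sign, but 3 against 4 libraries cannot reach the threshold in an exact test. Polr1e and Taf1d had the lowest CPM of the members under vehicle in IRflox cells, 12.8 and 17.5.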
